A study of Mus musculus with 6 samples.

Results

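Regions bound by Suz12 without a listed peak of Ring1B, Cbx7 or RYBP are described here in the mouse embryonic stem cell line E14Tg2A, which was wild type. The 4 deposited peak lists were pooled, peaks that shared at least 1 bp were merged, and a region was kept when it held Suz12 and none of the other 3 proteins. The members were thus chosen by the measured peak positions themselves. This gave 1984 of 13390 merged regions (14.8%). Each of the 1984 regions consisted of exactly 1 Suz12 peak, so they are also 24.6% of the 8054 Suz12 peaks (95% Wilson interval 23.7 to 25.6%). They held 1.88 Mb, or 12.1% of the sequence under Suz12 peaks. The study used chromatin immunoprecipitation and sequencing (ChIP-seq), which recovers the DNA bound by a protein with an antibody. All samples came from 1 line of strain 129/Ola, kept without feeder cells in serum and leukemia inhibitory factor. There was 1 library for each of Ring1B, Cbx7, Suz12 and RYBP, and 2 libraries made with rabbit IgG were not analysed here. No group had a genetic change or a drug, and no difference between proteins has a replicate check.

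Suz12 is a core subunit of Polycomb repressive complex PRC2, which methylates a lysine of histone H3 and is known in embryonic stem cells for its binding at CpG islands of silent developmental genes. Ring1B is the catalytic subunit of PRC1, which ubiquitinates histone H2A. Cbx7 brings PRC1 to the mark that PRC2 writes, and RYBP belongs to the variant PRC1 complexes that can be recruited without that mark. A region with Suz12 alone is therefore a site where PRC2 was listed and PRC1 was not, and such sites may be margins of a larger Polycomb domain or stand alone. The comparisons below describe how the regions divide between these arrangements.

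Most of the regions lay over 10 kb from any Ring1B peak. The edge-to-edge distance to the nearest Ring1B peak ranged from 9 bp to 3734 kb, with a median of 61.0 kb and quartiles of 11.8 and 186 kb. Under 10 kb from a Ring1B peak lay 451 regions (22.7%, 95% Wilson interval 20.9 to 24.6%). At 10 to 100 kb lay 736 regions (37.1%, 35.0 to 39.2%), and over 100 kb away lay 797 regions (40.2%, 38.0 to 42.3%). Distance is part of the way the regions were chosen and divided, so these shares are a description. No gap in the distances marks either limit: the regions on the 2 sides of 10 kb lay 9.72 and 10.03 kb from Ring1B, and those on the 2 sides of 100 kb lay 99.97 and 100.23 kb from it.

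**Figure D1:**
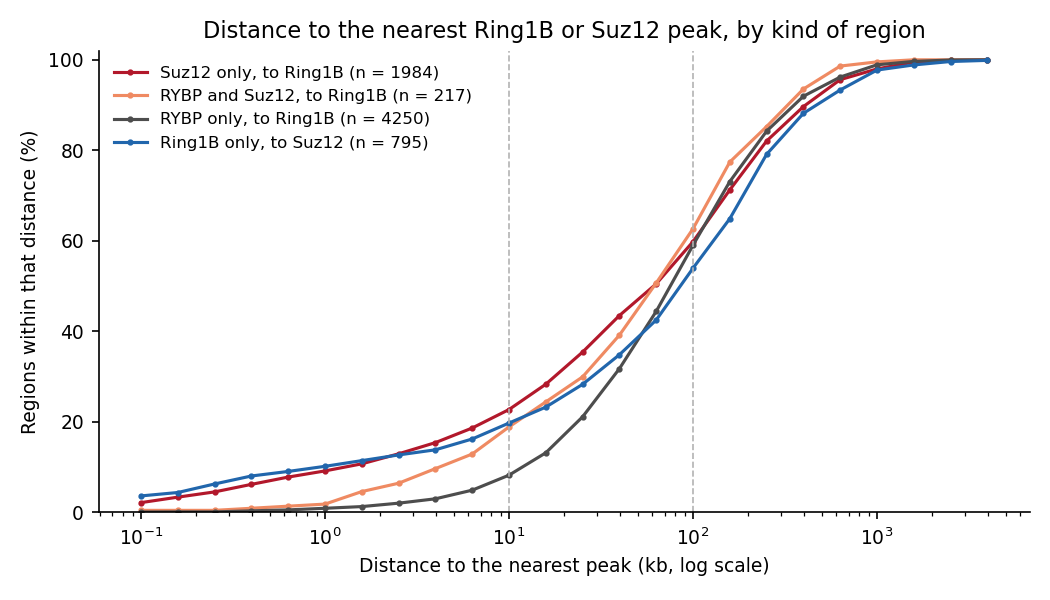
The share of regions (y axis, %) within a given distance of the nearest Ring1B peak (x axis, kb, log scale) is plotted for Suz12-only, RYBP with Suz12 and RYBP-only regions, and for Ring1B-only regions the distance to the nearest Suz12 peak; dashed lines mark 10 and 100 kb. At 1 kb the Suz12-only curve stands at 9.17% and the RYBP-only curve at 0.918%, while at 100 kb both lie near 60%.

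The smallest distances were crowded. In the first kb beside a Ring1B peak lay 182 Suz12-only regions (9.17%, 95% Wilson interval 7.98 to 10.5%), followed by 50 in the second kb and 39 in the third. The number per kb was 31 from 3 to 5 kb, 23.6 from 5 to 10 kb, 17.3 from 10 to 20 kb and 10.4 from 20 to 50 kb. Regions that held RYBP alone, the largest class of the merged regions with 4250 members, had no such crowding: 39 lay in the first kb (0.918%) and 37.5 per kb from 10 to 20 kb. Of these, 350 lay under 10 kb from Ring1B (8.24%). Of the 217 regions with RYBP and Suz12 but no Ring1B or Cbx7, 4 lay in the first kb (1.84%, 95% Wilson interval 0.719 to 4.64%). Within 10 kb there were 41 of the 217 (18.9%, 14.2 to 24.6%). The first interval includes the RYBP-only share and the second includes the Suz12-only share. The reverse arrangement was also crowded: of 795 regions with Ring1B alone, 81 lay within 1 kb of a Suz12 peak (10.2%) and 13 in the second kb. Crowding was thus not particular to Suz12-only regions. Of the 5470 regions that held both Ring1B and Suz12, with or without other proteins, 720 lay under 1 kb from the next region with Ring1B (13.2%). For 1570 of them it was under 10 kb away (28.7%).

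**Figure D2:**
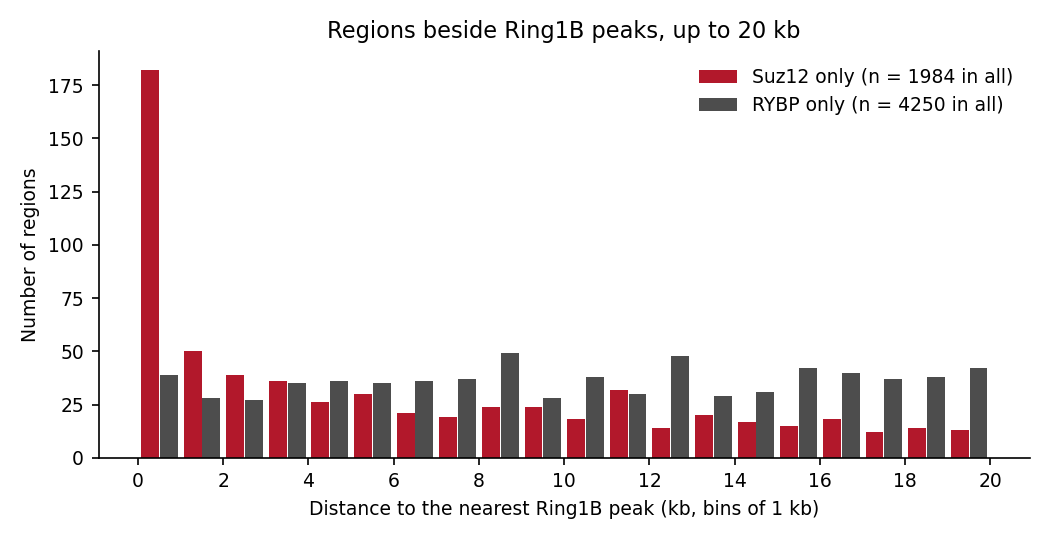
Bars count Suz12-only and RYBP-only regions (y axis) in bins of 1 kb of distance to the nearest Ring1B peak (x axis, kb), up to 20 kb. The first bin holds 182 Suz12-only and 39 RYBP-only regions, and from the second bin on the Suz12-only bars are at 50 or below.

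At the far end of the distances the kinds of region measured to Ring1B were close to each other. Over 100 kb from Ring1B lay 40.2% of Suz12-only, 41.0% of RYBP-only (39.5 to 42.5%) and 37.3% of RYBP with Suz12 regions (31.2 to 43.9%). The share was larger for regions with Ring1B alone, measured to the nearest Suz12 peak, at 46.0% (42.6 to 49.5%). The 5470 regions that held both Ring1B and Suz12, with or without other proteins, had a median distance of 56.4 kb to the next region with Ring1B, and for 37.2% of them it was over 100 kb. These shares were not tested, since distance to Ring1B divides the Suz12-only regions.

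The regions within 1 kb of Ring1B mostly adjoined another Suz12 peak as well. Of the 182, 165 had another Suz12 peak within 1 kb (90.7%, 95% Wilson interval 85.6 to 94.1%), and for 170 the nearest Ring1B region itself held Suz12 (93.4%). In 67 of them (36.8%) the Ring1B region ended in a Suz12 peak on the side that faced the Suz12-only region. They were narrower than regions at 1 to 10 kb, at a median of 745.5 bp wide (quartiles 522 and 975 bp) against 955 bp (629 and 1348 bp), and 1 of the 182 was wider than 2 kb. The lists hold no read counts, so whether the Suz12 signal falls to background between such neighbouring peaks was not tested. When peaks within 1 kb were joined, 1736 Suz12-only regions were left, of which 14.4% lay under 10 kb from Ring1B.

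Some Suz12 peaks lay close to the limit of 1 bp, on either side of it. The Suz12-only regions with the smallest gap to another list lay on chromosome 10 from 14263439 to 14263816, 2 bp from a Cbx7 peak, on chromosome 11 from 94872212 to 94873039, also 2 bp from a Cbx7 peak, and on chromosome 2 from 109515824 to 109516777, 9 bp from a Ring1B peak. Just outside, the Suz12 peak on chromosome 10 from 120748637 to 120749183 shared 3 bp with Cbx7, and those on chromosome 10 from 50630782 to 50631170 and on chromosome 12 from 50491085 to 50491808 shared 12 and 20 bp with Ring1B. Gaps under 100 bp to any of the 3 lists were found for 49 of the regions, and gaps under 1000 bp for 199. Outside, 12 Suz12 peaks had no overlap of 100 bp or more. Requiring the shared sequence to reach 50% of the shorter peak, in place of 1 bp, gave 2036 regions.

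The Suz12 peaks without other proteins were narrower than the other Suz12 peaks. Their median width was 853 bp (quartiles 597 and 1188 bp, range 186 to 3051 bp), and 48 of 1984 were wider than 2 kb (2.42%). For the other 6070 Suz12 peaks the median was 1903.5 bp, and 46.2% of them exceeded 2 kb. By kind of region, the median rose from 1344 bp for Suz12 peaks with RYBP and no Ring1B or Cbx7 to 1500 bp with Ring1B and no Cbx7 or RYBP, 1817 bp with Ring1B and RYBP, 2396 bp with Ring1B and Cbx7 and 2892 bp with all 3. Of the narrowest quintile of Suz12 peaks, up to 897 bp, 66.6% were Suz12-only (1072 of 1609), compared with 15.9% of the middle quintile and 0.745% of the widest (12 of 1611). Peaks without company were narrow in 2 of the other lists too: regions with Ring1B alone had a median of 670 bp against 1639 bp for all Ring1B peaks, and regions with Cbx7 alone 619 bp against 1940.5 bp. With RYBP alone it was 1176.5 bp against 1219 bp for that list. A wide peak meets other peaks more easily and width can follow signal strength, so width is tied to the rule and these values are a description.

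The medians of the 3 distance classes lay within 48 bp of each other. The median was 838 bp under 10 kb (quartiles 585 and 1198 bp), 879 bp at 10 to 100 kb (629 and 1227 bp) and 831 bp over 100 kb (570 and 1149 bp). The nearest class pooled unlike parts, with medians of 745.5 bp under 1 kb (182 regions) and 955 bp at 1 to 10 kb (269 regions). The medians of the nearest and farthest classes differed by 7 bp, and the 95% intervals of the 2 medians allow a difference from -65 to 94 bp. With peaks within 1 kb joined, the nearest class was wider by 115 bp, with limits of 30 and 220 bp that leave out 0. In all 3 classes the median lay below that of Suz12 peaks on Ring1B, where 1500 bp was the lowest.

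**Figure D3:**
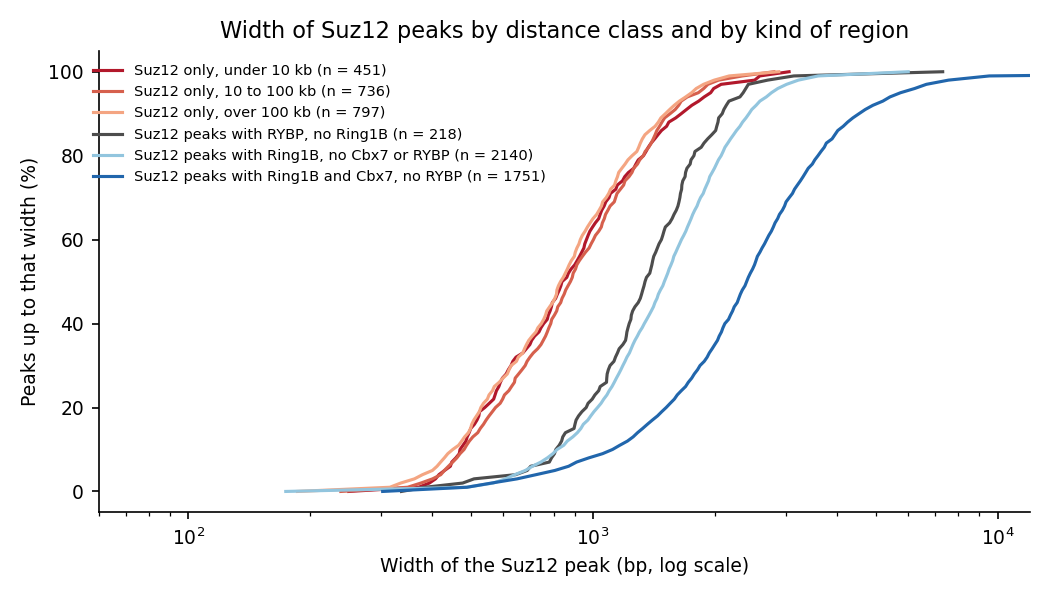
Curves give the share of Suz12 peaks (y axis, %) up to a given width (x axis, bp, log scale) for the 3 distance classes of Suz12-only regions and for Suz12 peaks in 3 other kinds of region; the axis ends short of the widest peaks with Ring1B and Cbx7. The 3 Suz12-only curves lie together, with medians of 838, 879 and 831 bp, left of the curves with medians of 1344, 1500 and 2396 bp.

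The 5 widest regions of each distance class were examined one by one. Each was wider than the median Ring1B peak (1639 bp). Under 10 kb, the widest lay on chromosome 7 from 80542320 to 80545371 (3051 bp), 4.47 kb from Ring1B and 4.85 kb from Cbx7. The next lay on chromosome 18 from 38356550 to 38359514 (2964 bp, 6.50 kb from Ring1B), chromosome 19 from 6921896 to 6924807 (2911 bp, 5.73 kb), chromosome 1 from 91818082 to 91820865 (2783 bp, 3.98 kb) and chromosome 17 from 57414124 to 57416747 (2623 bp, 1.22 kb). In each of these 5, another Suz12 peak lay between 1.37 and 6.16 kb away.

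At 10 to 100 kb the widest lay on chromosome 2 from 30546952 to 30549751 (2799 bp), 13.4 kb from Ring1B and 16.7 kb from RYBP. It was followed by chromosome 4 from 125932510 to 125935205 (2695 bp, 27.7 kb from Ring1B), chromosome 1 from 34690670 to 34693315 (2645 bp, 40.8 kb), chromosome 11 from 59952518 to 59955117 (2599 bp, 32.0 kb) and chromosome 2 from 92324588 to 92327056 (2468 bp, 23.4 kb). The nearest other Suz12 peak lay 13.4 to 40.7 kb from these 5 regions, so each was a single Suz12 peak and not one of a group.

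Over 100 kb the widest lay on chromosome 15 from 61816937 to 61819814 (2877 bp). The nearest Ring1B peak was 1160 kb away, whereas a Cbx7 peak lay 24.1 kb away, and a second Suz12-only region, from 61816229 to 61816849, ended 88 bp before it. The second widest, on chromosome 8 from 109393790 to 109396603 (2813 bp), was 277 kb from Ring1B, 175 kb from RYBP and 278 kb from any other Suz12 peak. The remaining 3 lay on chromosome 18 from 14002048 to 14004725 (2677 bp, 123 kb from Ring1B), chromosome 5 from 115642252 to 115644928 (2676 bp, 181 kb) and chromosome 1 from 91476782 to 91479150 (2368 bp, 346 kb). Distances to the next Suz12 peak ranged from 88 bp to 339 kb in these 5, so some of the wide remote regions stood alone and others did not.

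The regions over 100 kb from Ring1B were usually far from the other proteins too. Of the 797, 536 had no peak of Ring1B, Cbx7 or RYBP within 100 kb (67.3%, 95% Wilson interval 63.9 to 70.4%), and 435 had no peak of any list, Suz12 included (54.6%, 51.1 to 58.0%). RYBP was the nearest of the 3 proteins for 403 of them (50.6%), Ring1B for 330 (41.4%) and Cbx7 for 64 (8.03%). This order is tied to the class, which leaves out Ring1B within 100 kb. Among all 1984 Suz12-only regions Ring1B was nearest for 59.0% and RYBP for 35.0%. The Cbx7 list was the smallest, with 2754 peaks. Few had another protein close by: RYBP lay within 10 kb of 36 (4.52%) and Cbx7 within 10 kb of 8 (1.00%). The 3 regions farthest from Ring1B all lay on chromosome 12, from 41570816 to 41571293 (3734 kb away), from 41172728 to 41173864 (3336 kb) and from 42789943 to 42790373 (2532 kb), and were 477, 1136 and 430 bp wide.

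In the nearest class, by contrast, other subunits were common. A Cbx7 peak lay within 10 kb of 230 of the 451 regions (51.0%, 46.4 to 55.6%) and a RYBP peak within 10 kb of 181 (40.1%, 35.7 to 44.7%). Another Suz12 peak lay within 10 kb of 416 (92.2%). At 10 to 100 kb from Ring1B the shares fell to 0.408% for Cbx7 (3 of 736), 8.29% for RYBP (61) and 11.0% for another Suz12 peak (81). The Cbx7, RYBP and Suz12 lists share sites with Ring1B, so none of these shares is independent of the distance to Ring1B. For Suz12 the tie is close, since 81.4% of all Ring1B regions held it.

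Suz12-only regions seldom formed groups of their own. A run was counted where neighbours lay within 10 kb of each other with no peak of another list between them. Of the 1984 regions, 1803 stood alone in this sense (90.9%), 172 were in 86 runs of 2, and 9 were in 3 runs of 3. The longest run of 3 lay on chromosome 5 from 136326729 to 136334133, spanned 7.40 kb, was covered to 54.0% and came within 9.22 kb of a Ring1B peak. The second lay on chromosome 12 from 107716217 to 107719811 (3.59 kb), 31.0 kb from Ring1B and 29.8 kb from RYBP, with regions of 843, 483 and 505 bp. The third, on chromosome 18 from 34708341 to 34711822 (3.48 kb), began 508 bp from a Ring1B peak. Of all Suz12-only regions 12.9% had another Suz12 peak within 1 kb (11.5 to 14.4%), compared with 22.2% of the other Suz12 peaks (21.2 to 23.3%). The neighbour here is any Suz12 peak, Suz12-only or not. The other Suz12 peaks can also lie together in 1 merged region, so the 2 shares are tied to the rule and are a description.

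The Ring1B regions beside Suz12-only regions were then counted. Here 10 kb was measured to the edge of the merged region with Ring1B, which can extend past its Ring1B peak. Slightly more members than the 451 were therefore counted. Taking only the nearest region for each member, these were 419 different Ring1B regions of 6721. Of the 419, 389 adjoined 1 Suz12-only region, 28 adjoined 2, and 2 adjoined more. The 2 were singled out after their values were seen. A region with Ring1B and Suz12 on chromosome 18 from 34706408 to 34707954, 1546 bp wide, had 5 Suz12-only regions between 34697865 and 34711822, on both sides of it. A region with Ring1B, RYBP and Suz12 on chromosome 6 from 122436586 to 122437506 had 3, of which 2 were separated from each other by 1 bp. Measured to region edges in the same way, 93 members lay between 2 Ring1B regions, each within 10 kb. This count is 20.6% of 451 (17.1 to 24.6%). The rest of the members counted had a Ring1B region within that distance on 1 side. For 402 of the 451 the nearest Ring1B region held Suz12 (89.1%, 85.9 to 91.7%), compared with 81.4% of all Ring1B regions (80.4 to 82.3%).

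Regions with Ring1B, Suz12 and Cbx7 had a Suz12-only neighbour within 10 kb more often than those without Cbx7, but the direction depended on which Suz12 peaks were counted. Each merged region that held Ring1B and Suz12 was 1 unit. Of 2322 such regions with Cbx7, 295 had a neighbour (12.7%, 95% Wilson interval 11.4 to 14.1%), compared with 257 of 3148 without Cbx7 (8.16%, 7.26 to 9.17%). The Cbx7 list also helped to choose the Suz12-only regions, so these 2 shares are a description. For a test, the neighbours were chosen again without the Cbx7 and RYBP lists, as the 2224 Suz12 regions without Ring1B. A neighbour of this kind was found for 316 of 2365 regions with Cbx7 (13.4%) and for 290 of 3151 without (9.20%). The odds ratio was 1.52 (1.28 to 1.81, exact 95% limits), and Fisher's exact test, two-sided, gave p = 3.9e-06 after adjustment for 3 tests by the Benjamini-Hochberg method. Neighbouring regions are not independent, and the p-value treats them as if they were. With peaks within 1 kb joined, the odds ratio was 1.14 and no longer called (adjusted p = 0.34 by the exact test). Among Suz12 peaks of at least median width it turned to 0.412 (24 of 2076 regions with Cbx7 against 44 of 1594 without, adjusted p = 9.3e-04 by the exact test).

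Flanked regions were somewhat wider, with a median of 2385 bp (quartiles 1610 and 3553 bp) against 2174.5 bp (1605 and 2981 bp) for the others, and Cbx7 is more frequent in wide regions. The shares were therefore also taken within quintiles of region width, for the Suz12-only neighbours. In the narrowest quintile, 11.8% of regions with Cbx7 and 9.88% of those without had a neighbour. In the middle quintile the shares were 10.1% and 5.94%, and in the widest 15.4% and 11.0%. The share was higher with Cbx7 in each of the 5 quintiles, which is a description for the same reason as above. With neighbours chosen without the Cbx7 and RYBP lists the pooled Mantel-Haenszel odds ratio was 1.32 (95% limits 1.08 and 1.62).

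**Figure D4:**
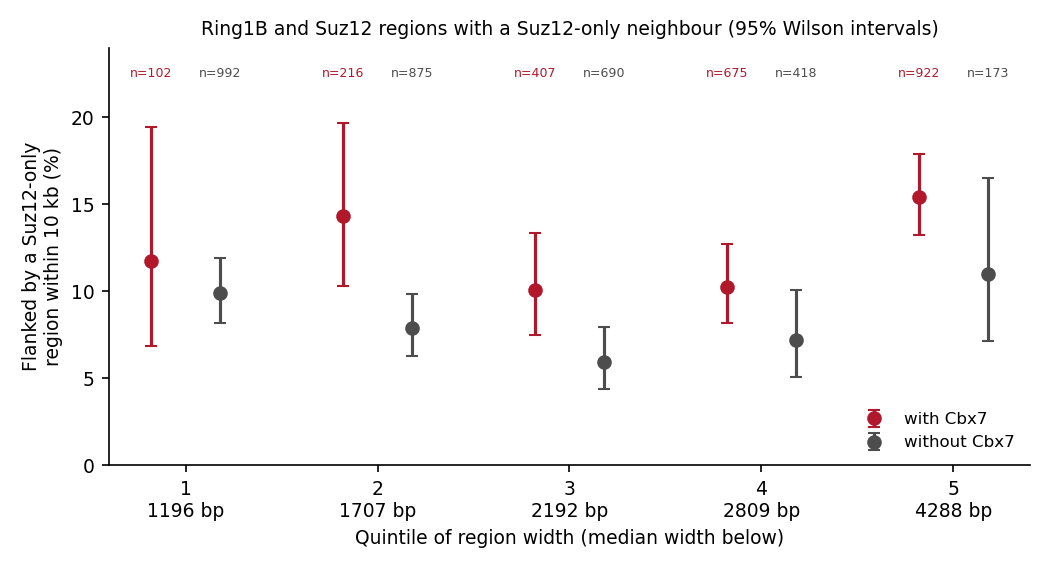
Points give the share of Ring1B and Suz12 regions with a Suz12-only region within 10 kb (y axis, %), with and without Cbx7, in quintiles of region width (x axis, median width in bp); bars are 95% Wilson intervals and n is the number of regions. The point with Cbx7 is the higher one in each quintile, from 11.8% against 9.88% in the narrowest to 15.4% against 11.0% in the widest, and the intervals overlap in all quintiles but the second.

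For RYBP no difference was called once the Cbx7 and RYBP lists were left out of the choice of neighbours. Of 1838 Ring1B and Suz12 regions with RYBP, 161 had a Suz12-only neighbour (8.76%, 7.55 to 10.1%), compared with 391 of 3632 without RYBP (10.8%, 9.80 to 11.8%), and the RYBP list helped to choose these neighbours. With neighbours chosen without the Cbx7 and RYBP lists, the shares were 10.2% (187 of 1841) and 11.4% (419 of 3675), with an odds ratio of 0.879 (0.728 to 1.06, adjusted p = 0.17 in the same exact test). With such neighbours the odds ratio turned to 1.43 when regions within 20 kb were joined to domains (adjusted p = 0.0016, exact test) and to 1.95 among Suz12 peaks of at least median width (adjusted p = 0.0077, exact test).

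Suz12-only regions were spread over all chromosomes. They made up between 19.9% of the Suz12 peaks on chromosome 15 (70 of 351) and 30.0% on chromosome 12 (110 of 367), apart from Y, where 3 of 5 peaks were Suz12-only. The share over 100 kb from Ring1B ranged from 28.7% on chromosome 7 (31 of 108) to 58.3% on chromosome 14 (42 of 72), Y aside with 0 of 3. On X lay 50 of the 1984 regions (2.52%, 95% Wilson interval 1.92 to 3.31%) and 175 of the 5470 regions with Ring1B and Suz12 (3.20%, 2.76 to 3.70%). With all 4 lists in the rule this difference was not called in the exact test (odds ratio 0.782, limits 0.557 and 1.08, adjusted p = 0.15). It was not called with the Cbx7 and RYBP lists left out either (odds ratio 0.745, adjusted p = 0.095 by the exact test).

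Within chromosomes the regions occupied 1099 windows of 1 Mb. In 586 of these a single one was found, so 29.5% of the regions were alone in their window and 1398 (70.5%) shared it with at least 1 other, while 42 windows held 5 or more. The window with the most was on chromosome 18 from 37000000 to 38000000, with 13 Suz12-only regions among 63 Suz12, 48 Ring1B, 17 Cbx7 and 19 RYBP peaks. The second, on chromosome 11 from 96000000 to 97000000, held 12 among 56 Suz12 and 43 Ring1B peaks, and the third, on chromosome 10 from 79000000 to 80000000, held 10 among 24 Suz12 and 13 Ring1B peaks. The Suz12-only regions were 20.6% and 21.4% of the Suz12 peaks in the first 2 windows and 41.7% in the third, compared with 24.6% of the whole list. The window shares rest on few peaks, in windows picked for their number of Suz12-only regions. Whether they differ from the whole list was not tested. As background, the first of these windows is known to hold clustered protocadherin genes, which encode neuronal adhesion proteins, and the second the Hoxb genes, which pattern the body axis. The lists name no genes, and no annotation of mm9 was used to place them.

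In these windows the regions were mainly interspersed with Ring1B. On chromosome 18, 12 of the 13 lay under 10 kb from a Ring1B peak, of which 7 lay under 1 kb, and the remaining one was 17.2 kb away. Their widths ran from 404 to 2094 bp with a median of 1047 bp. On chromosome 11, 8 of 12 lay under 10 kb. Within it, the 200 kb with the most Suz12-only regions, from 96000000 to 96200000, held 28 Ring1B, 17 Cbx7, 39 Suz12 and 2 RYBP peaks, and 8 of the Suz12 peaks were Suz12-only. These 8 were 859, 1596, 1355, 901, 1539, 396, 544 and 586 bp wide. In the same order they lay 24183, 16509, 171, 187, 2342, 32, 48 and 1325 bp from the nearest Ring1B peak, so 6 of them were under 10 kb away and 4 under 1 kb. The window on chromosome 10 had 6 of 10 under 10 kb and 1 over 100 kb.

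**Figure D5:**
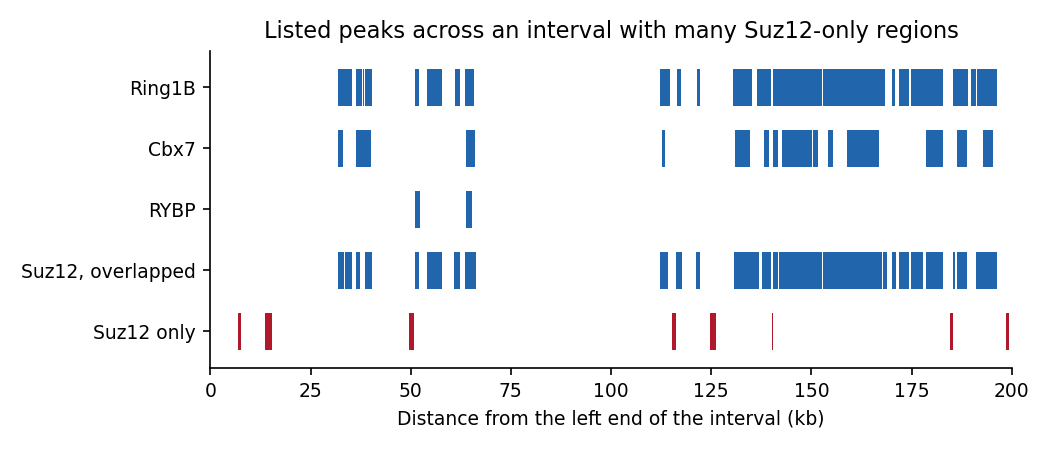
Bars mark the listed peaks of Ring1B, Cbx7 and RYBP, the Suz12 peaks that overlap them and the Suz12-only peaks (rows) along 200 kb of chromosome 11 (x axis, kb from the left end of the interval). Of the 8 Suz12-only peaks, the first 2 on the left stand 24.2 and 16.5 kb from Ring1B, and the others sit in gaps and at the margins of the Ring1B peaks, at most 2.34 kb away.

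One window of another kind was singled out after its values were seen. On chromosome 1, from 135000000 to 136000000, 7 Suz12-only regions lay between 135629446 and 135990986, all of them over 100 kb from Ring1B (106 to 174 kb). They were 842, 2170, 1521, 1182, 1606, 873 and 1869 bp wide, with a median of 1521 bp, against 831 bp for all regions over 100 kb away. The nearest Cbx7 peaks were 139 to 376 kb away and the nearest RYBP peaks 37.2 to 182 kb. The window held 14 Suz12, 6 Ring1B, 2 Cbx7 and 4 RYBP peaks in all, so PRC1 was listed in the window but not beside these 7 regions.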

How the data were processed

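The submitters' processing notes name build mm9, MACS 1.3.7.1 and Bowtie 0.12.7, without stated roles. The authors deposited 1 peak list per target with start and end positions only, and no other measure per peak: no count, score or height. Read depth is unknown, and for the control, threshold, duplicates and pooling nothing is stated in the labels. The name column carries 5 for RYBP and 10 for the other lists, with no stated meaning. If it is a threshold, RYBP was called at another stringency. Positions are printed as listed.

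Overlap and distance were computed with Python 3.11.15 and numpy 2.4.6 on half-open intervals. Shares have 95% Wilson intervals and medians order-statistic intervals, which cover the sampling of regions and not variation between libraries. Fisher's exact tests were run with SciPy 1.17.1 and Mantel-Haenszel tests with statsmodels 0.14.6. Within each setting 3 p-values were adjusted together, or 2 where X could not be compared, with a threshold of 0.05. Merging, distance classes and the test were tested on simulated data. Regions named are the 5 widest of each distance class, the 3 farthest from Ring1B, the 3 windows with the most regions, the 3 largest runs and those nearest the limit of overlap. A window on chromosome 1 and 2 Ring1B regions, on chromosomes 6 and 18, were added after their values were seen, as was the test with neighbours chosen without the Cbx7 and RYBP lists. Members, limits and tests were chosen with earlier results of these data known. No genome of mm9 was used, so genes, sequences and the intended CpG comparison are not reported here.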

Additional observations from a re-analysis of the deposited data

How the results depend on the processing

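The number of Suz12-only regions ranged from 1736 to 2224 except with Suz12 peaks of at least median width alone, which left 187 regions, none of them on X, so that X could not be compared. Under that setting 27.8% lay under 10 kb and 35.3% over 100 kb from Ring1B. The median width was 1834 bp and the difference in width 97.5 bp, with limits of -57 and 231 bp. The odds ratios of 0.568 for Cbx7 and 1.69 for RYBP were not called (adjusted p = 0.096 for each, exact test). With peaks within 1 kb joined, the values were 14.4%, 44.6%, 889 bp and 115 bp. The odds ratios were then 1.21 for Cbx7 and 1.12 for RYBP, also not called (adjusted p = 0.23 and 0.38, exact tests). Distance between centres gave 20.8% under 10 kb. Without the RYBP list the median width was 892 bp, and 891.5 bp without the Cbx7 and RYBP lists. With all 4 lists in the rule, the odds ratio was 1.64 for Cbx7 and 0.796 for RYBP (adjusted p = 0.030, exact test). For RYBP it was 0.888 without the RYBP list, 0.863 at 5 kb and 1.31 between domains. With the Cbx7 and RYBP lists left out of the rule, chosen after seeing the data, the odds ratio for Cbx7 was 1.52, and 1.14 with peaks within 1 kb joined, 0.412 among wide Suz12 peaks and 1.87 between domains. For RYBP it was then 0.879, 0.818 within width quintiles, 1.13 with peaks within 1 kb joined, 1.43 between domains and 1.95 among wide Suz12 peaks. The cause was not tested. Leaving out the 3 windows with the most regions and a flank distance of 1 kb were also chosen after seeing the data, and changed no call. The CpG comparison was not run. No paired analysis was possible because each target has 1 library.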
